A study of Mus musculus with 19 samples.

Results

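B cells and the plasma cells they become were followed through 9 genes in primary mouse sarcomas that arose with or without the ability to make lymphocytes. The 9 genes were taken by name and were Ms4a1, Cd79a, Cd79b, Pax5, Cd22 and Blk, which mark B cells, and Mzb1, Tnfrsf17 and Pou2af1, which mark plasma cells or B cells on the way to becoming them. All 9 were found among the 48795 gene identifiers of the deposited table. The 19 tumors were p53/MCA sarcomas, 11 labelled Rag2-/- and 8 labelled Rag2+/-. All had been started in mice aged 6 to 10 weeks by injecting the gastrocnemius muscle with an adenovirus that carries Cas9 and a guide against Trp53 (Adeno-sgp53-Cas9), followed by 300 µg of the carcinogen 3-methylcholanthrene (MCA), so loss of p53 and exposure to MCA are shared by both genotypes. Tumors were left untreated and were collected at 70 to 150 mm3, 1 library per tumor, and are named here by their library codes. The Rag2 mutation removes T cells together with B cells, so the genotypes do not differ in B cells alone. The strain of the Rag2 mice is not given in the sources used here.

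Rag2 is one of the 2 proteins of the recombinase that cuts and joins immunoglobulin and T cell receptor genes, and without it B cell development stops before a B cell receptor is made. A B cell displays its receptor together with the signaling chains Cd79a and Cd79b, is damped by Cd22, signals through kinases such as Blk, carries Ms4a1 (CD20) on its surface and is held in its identity by the transcription factor Pax5. When a B cell becomes a plasma cell it turns most of these genes down, secretes antibody with the help of the chaperone-associated protein Mzb1, and depends for survival on Tnfrsf17 (BCMA), a receptor for the cytokines BAFF and APRIL. Pou2af1 (OBF-1) is a coactivator that works with octamer-binding factors on immunoglobulin promoters in both stages.

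Each value below is the authors' upper-quartile normalized FPKM (fragments scaled to transcript length and library size) as log2 of the value plus 0.1, so a gene listed at 0 stands at the floor of −3.32. From the spacing of low values, libraries held an estimated 24.8 to 33.7 M fragments on genes (M for mega), except S41 (Rag2-/-) with 5.23 M. S56 and S60 (both Rag2+/-) had the fewest genes above the floor, 15579 and 16309 against 16604 to 19472 in the other 17 tumors, and their mean over 8 skeletal muscle genes was 13.68 and 13.05, where the range of all 19 tumors was 4.84 to 13.68. Values of these 3 libraries are given apart where they touch a result. For Rag2 itself, the mean was −0.34 ± 0.74 (SD, n = 11) in the 11 tumors labelled Rag2-/- and −1.31 ± 0.70 (SD, n = 8) in the 8 labelled Rag2+/-. This value covers the whole gene, does not show which part was transcribed and so does not check the labels. The T cell receptor chain Cd3e was at the floor in 11 of 11 Rag2-/- tumors and at −0.61 or above in 8 of 8 Rag2+/- tumors.

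To show the DNA beside which transcription starts, promoters were looked up in RefSeq for the 9 genes, and 5 were in the table (Cd79a, Pax5, Cd22, Tnfrsf17 and Pou2af1). The letters of 4 short motifs of B cell transcription factors were searched on both strands of the 250 bases before each start. They were the octamer ATGCAAAT, the EBF motif CCCNNGGGA, the PU.1 motif GAGGAA and the E-box CAGGTG. Of 32851 promoters of all genes, 1.6% held the octamer, 5.6% the EBF motif, 23.3% the PU.1 motif and 17.2% the E-box. Printed below are the part before the start that lies in no GENCODE exon for Cd79a and Pou2af1, the members with the largest differences among those with an entry, and for Cd22, a member whose genotypes overlapped almost wholly. Motifs found are in capitals.
Cd79a: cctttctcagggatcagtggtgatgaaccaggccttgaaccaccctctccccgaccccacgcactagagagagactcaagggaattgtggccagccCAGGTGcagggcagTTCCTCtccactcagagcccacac
Pou2af1: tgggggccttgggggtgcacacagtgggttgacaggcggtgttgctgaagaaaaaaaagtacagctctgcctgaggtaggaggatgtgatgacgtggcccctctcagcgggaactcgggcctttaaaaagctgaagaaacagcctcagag
Cd22: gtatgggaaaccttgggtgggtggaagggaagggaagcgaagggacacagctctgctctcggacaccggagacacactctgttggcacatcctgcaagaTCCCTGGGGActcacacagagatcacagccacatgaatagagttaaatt
The Cd79a stretch is chr7:24897247-24897380 of GRCm38.p6 on the plus strand, and it holds an E-box that begins 154 bases before the RefSeq start and a PU.1 motif, read on the opposite strand, that begins 140 bases before it. The Pou2af1 stretch is chr9:51213540-51213689 on the plus strand and holds none of the 4 motifs. The Cd22 stretch is chr7:30879029-30879176 on the minus strand, lies inside an intron of longer GENCODE transcripts of the gene, and holds the EBF motif on both strands in overlapping positions 49 and 48 bases before the start. Tnfrsf17 had 1 PU.1 motif, Cd22 had a further E-box outside the stretch shown, and Pax5 had none of the 4. The octamer was in none of the 5. A match describes letters only, and no binding was measured here.

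Expression of the 9 genes was then compared between genotypes. Cd79a was lower in Rag2-/- tumors and was the only member that passed the threshold of 0.05 on limma's adjusted p over all 21459 genes tested. Pou2af1 and Mzb1 had differences of like size, with Rag2-/- tumors at or near the floor, but the Rag2+/- tumors were widely spread and neither passed. The B cell genes Cd79b, Cd22 and Pax5 were above the floor in 11 of 11 Rag2-/- tumors. All 9 members were above the floor in at least 3 tumors and were tested, and 1 of 9 was called lower and 0 of 9 higher. Over all genes tested, limma called 0.168% lower (36 genes) and 0% higher (0 genes), while 2975 genes had an unadjusted p under 0.05, as did 4 members, all lower. The calls were not in 1 direction in every set of tumors, with 46 lower and 13 higher without S51 (Rag2-/-) and 48 lower and 14 higher in the 15 tumors of the study's figure. The 4 tumors not in that figure were S41, S46 and S51 (Rag2-/-) and S56 (Rag2+/-). The paper says that samples failing quality control or short of RNA or DNA were left out, without naming them. The median difference over the 9 was −0.34 and over all genes tested 0.07. In 0 of 9 members were the genotypes free of overlap, against 0.0652% of all genes tested. In bulk tumors, fewer cells of a type and less RNA per cell cannot be told apart.

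**Figure D1:**
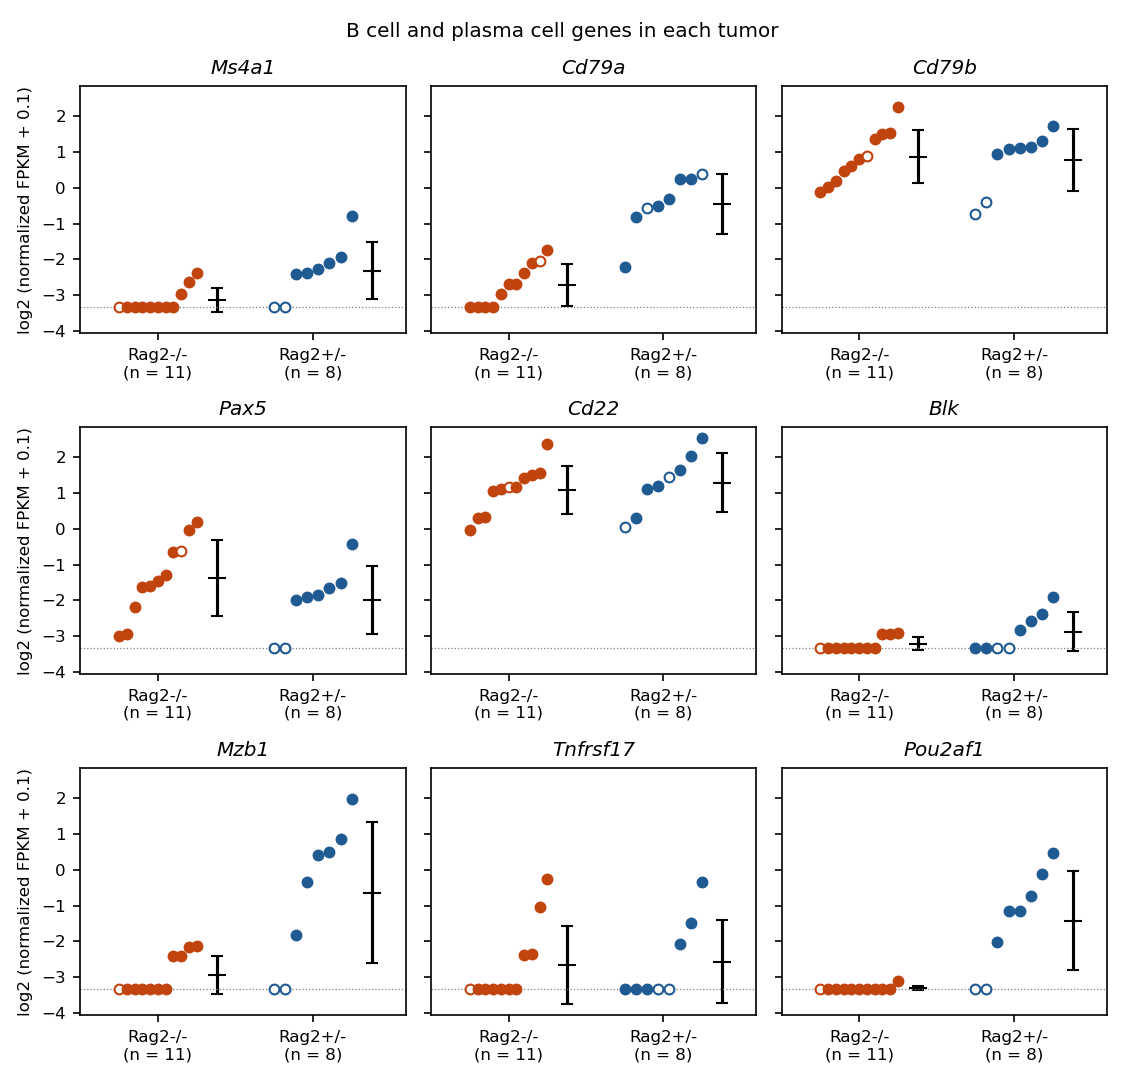
Log2 value (normalized FPKM with 0.1 added) of each of the 9 genes in each tumor, for 11 Rag2-/- (orange) and 8 Rag2+/- (blue) tumors, in order of value. The black line and bar are the mean ± SD, the dotted line is the floor, and open circles are S41, S56 and S60. Cd79a, Mzb1 and Pou2af1 sit higher in most Rag2+/- tumors, while Cd79b and Cd22 overlap over most of their range.

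Cd79a and Cd79b form the signaling pair of the B cell receptor, and their values in these tumors were unlike each other. Cd79a (ENSMUSG00000003379, chromosome 7, 24897381 to 24902197, plus strand of GRCm38) had its lowest value at −3.32, its median at −2.69 and its highest at −1.75 in Rag2-/- tumors, and −2.22, −0.42 and 0.37 in Rag2+/- tumors. The Rag2+/- tumor S53, at −2.22, lay below S48 (−1.75), S41 (−2.04) and S47 (−2.09) of the Rag2-/- tumors, and the other 7 Rag2+/- tumors, from −0.82 to 0.37, lay above all 11. The value of S41 rests on 1 estimated fragment in a library of 5.23 M. The means were −2.72 ± 0.58 (SD, n = 11) and −0.45 ± 0.84 (SD, n = 8), and the difference was −2.27 (95% interval −2.96 to −1.58, limma adjusted p = 9.83e-04, two-sided exact permutation p = 5.29e-05). On the linear scale these were mean normalized FPKM of 0.064 and 0.726. An estimated 21 fragments in all 11 Rag2-/- tumors together, at most 8 in 1 tumor, stood against 179 in the 8 Rag2+/- tumors, with 4 to 46 in each. The depth behind the genotypes was 294 M and 232 M fragments. Without S56 and S60 the difference was −2.15 (limma adjusted p = 0.00569).

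Cd79b (ENSMUSG00000040592, chromosome 11, 106311341 to 106314762, minus strand) was well above the floor in every Rag2-/- tumor. It ran from −0.11 over a median of 0.81 to 2.26 in these, and from −0.75 over 1.10 to 1.72 in Rag2+/- tumors. The highest tumor was S46 of the Rag2-/- genotype, and the lowest were S56 (−0.75) and S60 (−0.40) of the Rag2+/- genotype. The difference was 0.10 (95% interval −0.67 to 0.86, limma adjusted p = 0.903), so a change of up to 0.86 upward or 0.67 downward was not excluded, and its sign turned to −0.35 without S56 and S60. The fragments were an estimated 12 to 166 per Rag2-/- tumor and 8 to 133 per Rag2+/- tumor. In Rag2-/- tumors Cd79b therefore rested on 720 fragments where its partner Cd79a rested on 21.

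Cd22, an inhibitory coreceptor that binds sialic acid, had the highest mean of the 9 genes in both genotypes. Its values (ENSMUSG00000030577, chromosome 7, 30865402 to 30880342, minus strand) went from −0.03 over a median of 1.15 to 2.36 in Rag2-/- tumors and from 0.06 over 1.32 to 2.52 in Rag2+/- tumors. The genotypes overlapped over almost their whole range, with a difference of −0.20 (95% interval −0.92 to 0.51, limma adjusted p = 0.765). It was −0.38 without S56 and S60, and single tumors moved it between −0.03 (without S52) and −0.38 (without S56). S46 (2.36) and S52 (2.52) were the highest of their genotypes. GENCODE places the exons of the antisense gene Gm29439 over those of Cd22, and it was above the floor in 5 of 19 tumors, with at most −0.58. The library kit is not stated to mark strand, so reads of such a pair cannot be told apart.

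Pax5, the factor that commits and keeps a cell to the B lineage, differed between genotypes by less than the spread between tumors (ENSMUSG00000014030, chromosome 4, 44524757 to 44710487, minus strand). It lay between −3.00 and 0.18 with a median of −1.47 in these, and between −3.32 and −0.42 with a median of −1.88 in Rag2+/- tumors. The 2 highest tumors, S44 (0.18) and S43 (−0.04), were Rag2-/-, with an estimated 202 and 173 fragments, and in them Ms4a1 and Blk were at the floor and Cd79a rested on 0 and 2 fragments. S56 and S60 were at the floor. The difference was 0.61 (95% interval −0.34 to 1.57, limma adjusted p = 0.497), 0.17 without S56 and S60 and 0.12 with the mean over the skeletal muscle genes as a covariate. The antisense genes Gm12462 and 5730488B01Rik overlap its exons. The former was above the floor in 2 of 19 tumors, and the latter was at the floor in 19 of 19.

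Ms4a1, the CD20 antigen of mature B cells, was at the floor in 8 of 11 Rag2-/- tumors and 2 of 8 Rag2+/- tumors (ENSMUSG00000024673, chromosome 19, 11249675 to 11266241, minus strand). The 3 Rag2-/- tumors above the floor were S42 (−2.98), S47 (−2.64) and S50 (−2.39), with an estimated 2, 5 and 7 fragments. In Rag2+/- tumors the lowest was −3.32, the median −2.32 and the highest −0.80, in S59, where 26 fragments were estimated. S50 lay within the range of the Rag2+/- tumors above the floor. The difference of −0.83 (95% interval −1.38 to −0.28) had a limma adjusted p of 0.346 and a two-sided exact permutation p of 0.00546, and it became −1.17 with an adjusted p of 0.0302 without S56 and S60, but did not pass without S41 as well (−1.15, adjusted p = 0.0614). S56 and S60 were the 2 Rag2+/- tumors at the floor, so leaving them out could only enlarge the difference.

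Blk, a Src-family kinase of B cells, was the scarcest B cell gene among the 9 members. It was above the floor in 3 of 11 Rag2-/- tumors (S46, S47 and S49, from −2.93 to −2.92, with 2 fragments each) and in 4 of 8 Rag2+/- tumors (S54 at −1.90, S59 at −2.39, S55 at −2.58 and S58 at −2.82, with 10, 4, 4 and 3 fragments). The difference was −0.34 (95% interval −0.71 to 0.03, limma adjusted p = 0.382), −0.20 without S54 and −0.49 without S56 and S60. These values rest on 6 fragments in all Rag2-/- tumors against 21 in all Rag2+/- tumors for the gene (ENSMUSG00000014453, chromosome 14, 63372836 to 63417037, minus strand).

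**Figure D2:**
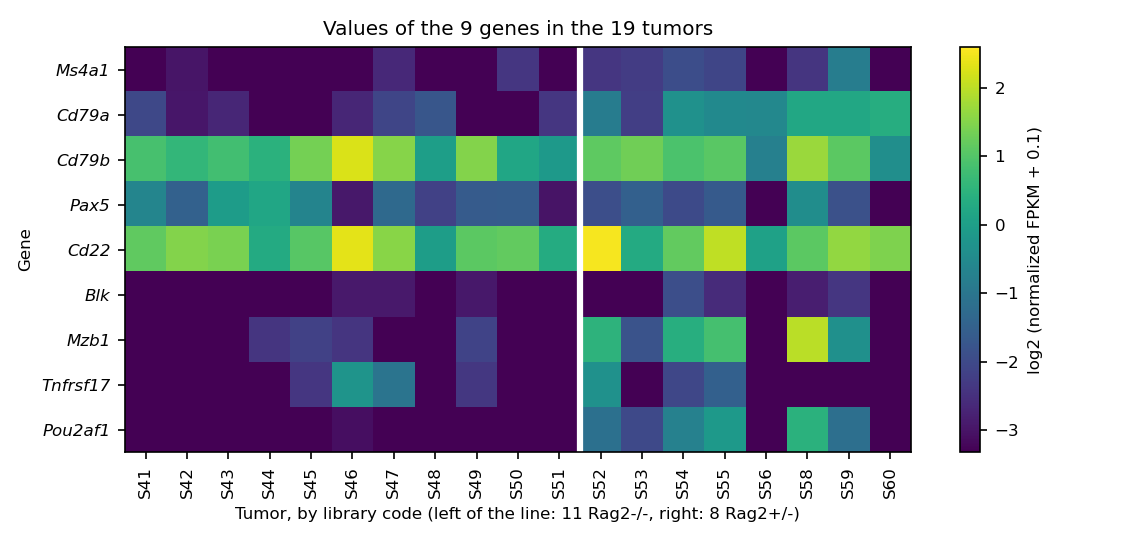
Log2 value (color) of the 9 genes (rows) in the 19 tumors (columns), with 11 Rag2-/- tumors left of the white line and 8 Rag2+/- tumors right of it. Cd79b and Cd22 were bright in both genotypes, Pou2af1 and Mzb1 were dark across the Rag2-/- tumors and above the floor in 6 of 8 Rag2+/- tumors, dimmest in S53, and S56 and S60 were dark for 6 of the 9 genes each.

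Among the genes of antibody secretion, Pou2af1 and Mzb1 were seen mainly in Rag2+/- tumors, while Tnfrsf17 was above the floor in some tumors of each genotype. Pou2af1 (ENSMUSG00000032053, chromosome 9, 51213708 to 51240080, plus strand) was at the floor in 10 of 11 Rag2-/- tumors, the exception being S46 at −3.11, where 1 fragment was estimated. In Rag2+/- tumors it was at −1.15 in S52, −2.02 in S53, −0.73 in S54, −0.12 in S55, 0.46 in S58 and −1.15 in S59, and at the floor in S56 and S60. The 6 tumors above the floor all lay above every Rag2-/- tumor, and they held 9 to 95 fragments each, 220 together against 1. The difference was −1.88 (95% interval −2.71 to −1.06, limma adjusted p = 0.0645, two-sided exact permutation p = 0.00103). It passed without S56 (adjusted p = 0.00465), without S60 (0.00623) and without both (difference −2.52, adjusted p = 1.49e-05). As these are the Rag2+/- tumors with Pou2af1 at the floor, leaving them out could only enlarge the difference. Leaving out both was chosen after seeing the data. Since most Rag2-/- values are at the floor, the size of this difference depends on the 0.1 added, and it was −0.46 with 1 and −4.05 with 0.01 in its place. The same holds for Mzb1 (−0.83 and −3.76). The difference of Cd79a also moved with the amount added (−0.67 and −3.88), although 7 of 11 Rag2-/- tumors were above the floor for it.

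Mzb1, a protein of the endoplasmic reticulum that helps antibody folding and secretion, had the widest spread of the 9 genes among Rag2+/- tumors (ENSMUSG00000024353, chromosome 18, 35647267 to 35649367, minus strand). It was at 0.50 in S52, −1.81 in S53, 0.40 in S54, 0.84 in S55, 1.98 in S58 and −0.36 in S59, and at the floor in S56 and S60. Rag2-/- tumors were at the floor except S44 (−2.40), S45 (−2.17), S46 (−2.40) and S49 (−2.13), with 2 or 3 fragments each. All 6 Rag2+/- tumors above the floor lay above all 11 Rag2-/- tumors, and they held 4 to 101 fragments. The difference was −2.30 (95% interval −3.52 to −1.09) with a limma adjusted p of 0.215 and a two-sided exact permutation p of 0.00197. Without S56 and S60 it was −3.20 (adjusted p = 3.83e-04). Both had Mzb1 at the floor, so leaving them out could only enlarge the difference. GENCODE places exons of an entry written SPATA24 over those of Mzb1 on the same strand, so reads in the shared part could belong to either. The gene named Spata24 was above the floor in 19 of 19 tumors, at 1.73 ± 0.40 (SD, n = 11) and 1.93 ± 0.41 (SD, n = 8). Whether it is the same entry was not checked.

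Tnfrsf17, the receptor by which long-lived plasma cells receive survival signals, differed between genotypes by less than the spread between tumors (ENSMUSG00000022496, chromosome 16, 11313812 to 11320074, plus strand). It was above the floor in 4 of 11 of them, S46 (−0.25), S47 (−1.05), S49 (−2.36) and S45 (−2.39), with 15, 8, 2 and 2 fragments. In Rag2+/- tumors it was above the floor in 3 of 8, S52 (−0.34), S55 (−1.50) and S54 (−2.06), with 10, 5 and 3 fragments. The highest value of all was in a Rag2-/- tumor, and S58, the tumor with the most Mzb1 and Pou2af1, was at the floor. The difference was −0.10 (95% interval −1.11 to 0.91, limma adjusted p = 0.925), with 27 fragments in all Rag2-/- tumors against 18. It was −0.35 without S56 and S60, and leaving out 1 tumor moved it between −0.34 (without S46) and 0.22 (without S52).

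**Figure D3:**
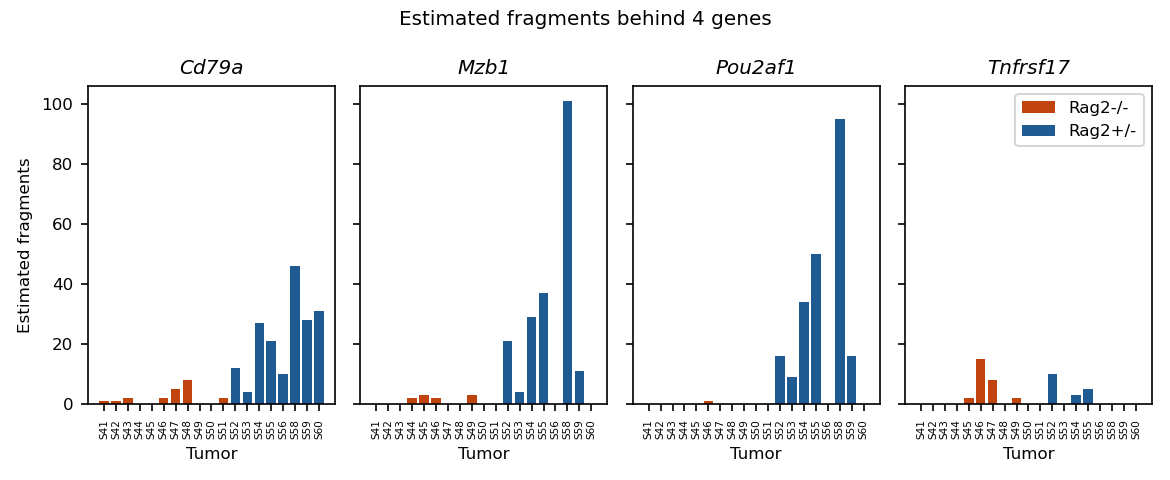
Estimated fragments behind Cd79a, Mzb1, Pou2af1 and Tnfrsf17 in each of the 19 tumors (bars, from 0), colored by genotype. The Pou2af1 and Mzb1 bars of Rag2-/- tumors reach 1 and 3 fragments and those of S58 reach 95 and 101, while the highest Tnfrsf17 bar, 15 fragments, is that of the Rag2-/- tumor S46.

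**Figure D4:**
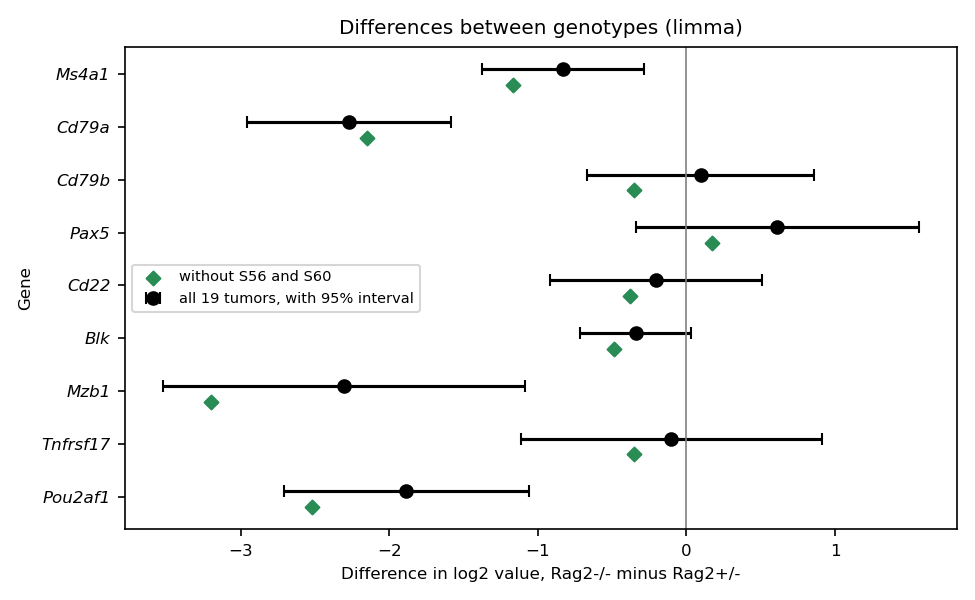
Difference in log2 value between genotypes (Rag2-/- minus Rag2+/-) for the 9 genes. Black points and bars are the limma estimate over 19 tumors with its 95% interval, and green diamonds are the estimate without S56 and S60. The intervals of Cd79a, Mzb1, Pou2af1 and Ms4a1 lie below 0, and Cd79b changes sign when the 2 tumors are left out.

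FPKM values are per length and allow the 9 genes to be put in order on the log2 scale. In Rag2+/- tumors the mean levels ran Cd22 (1.29), Cd79b (0.77), Cd79a (−0.45), Mzb1 (−0.64), Pou2af1 (−1.42), Pax5 (−2.0), Ms4a1 (−2.31), Tnfrsf17 (−2.56) and Blk (−2.87). Only Mzb1 and Pou2af1, of these neighbors, differed by more than 1 SD of the differences within tumors (0.78 ± 0.65, n = 8, with Mzb1 higher in 6 of 8 tumors). Without S56 and S60, Mzb1 (0.26) stood above Cd79a (−0.57) and the rest of the order was the same, and Pou2af1 and Pax5 were then the neighbors beyond that spread (0.77 ± 0.70, n = 6, with Pou2af1 higher in 5 of 6 tumors). In Rag2-/- tumors the order was Cd22 (1.08), Cd79b (0.86), Pax5 (−1.38), Tnfrsf17 (−2.66), Cd79a (−2.72), Mzb1 (−2.94), Ms4a1 (−3.14), Blk (−3.21) and Pou2af1 (−3.30). There the gap between Cd79b and Pax5 (2.25 ± 1.30, n = 11) was beyond the spread, with Cd79b higher in 11 of 11 tumors, and the other neighbors were not, with or without S41.

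The Rag2+/- tumors differed from one another in which of the 9 genes stood above the floor. S54 and S55 had 9 of 9 above the floor, S52, S58 and S59 had 8, S53 had 7, and S56 and S60 had 3. S58 was highest of the 8 for Cd79b, Pax5, Mzb1 and Pou2af1, S52 for Cd22 and Tnfrsf17, S59 for Ms4a1, S54 for Blk and S60 for Cd79a. S60 thus held an estimated 31 fragments of Cd79a and 0 of Ms4a1, Pax5, Blk, Mzb1, Tnfrsf17 and Pou2af1. In S56 the same 6 genes were at the floor and Cd79a rested on 10 fragments. Over all genes, S56 and S60 also had few values little above the floor, 374 and 767 against 1353 to 3040 in the other Rag2+/- tumors. Whether the 6 genes were absent from these 2 tumors or lost with other low values was not tested. The Rag2-/- tumors held 4 to 8 of the 9, with 8 in S46, 7 in S47 and 6 in S49.

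The genes of these cell types that are not among the 9 were described in the same way, first the immunoglobulin genes that B cells and plasma cells transcribe. Of 8 immunoglobulin and J chain genes, 5 were called lower in Rag2-/- tumors and 0 higher, with a median difference of −4.19. They were Igkc, Igha, Ighg1, Ighg2b and Jchain, the light chain constant region, 3 heavy chain constant regions and the peptide that joins IgA and IgM. Igkc was at −3.02 ± 0.78 (SD, n = 11) in Rag2-/- tumors, where 9 of 11 were at the floor and S48 (−0.80) and S46 (−2.51) were not, and at 6.71 ± 1.70 (SD, n = 8) in Rag2+/- tumors. The value of Jchain was −3.08 ± 0.35 (SD, n = 11) and 4.22 ± 1.67 (SD, n = 8). Both stayed above the floor in S56 (3.88 and 1.19) and S60 (6.13 and 3.56), where Mzb1 and Pou2af1 were at the floor.

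Igha, the IgA heavy chain, was at −2.81 ± 0.54 (SD, n = 11) and 5.88 ± 1.67 (SD, n = 8), and Ighg2b was at the floor in 11 of 11 Rag2-/- tumors and between 0.28 and 2.97 in Rag2+/- tumors. Ighm, the IgM heavy chain, was present in both genotypes, at 4.04 ± 0.87 (SD, n = 11) and 4.68 ± 1.29 (SD, n = 8), with a difference of −0.63 that did not pass. Ighg2c was at 0.66 in the Rag2-/- tumor S51. Constant region genes have near copies, so the value of a single one is uncertain.

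Of 16 other B cell genes, 0 were called in either direction, and 3 had an unadjusted p under 0.05, all lower in Rag2-/- tumors. The median difference was −0.25. Fcmr, a receptor for IgM, was at the floor in 11 of 11 and above it in 5 of 8, with a difference of −1.32. Fcer2a (CD23) was likewise at the floor in 11 of 11, and it was at −0.24 in S60 and −0.72 in S59. Blnk, Btk, Ebf1, Cd37, Ralgps2 and Swap70, which act in B cells and in other cells too, were above the floor in 19 of 19 tumors, with differences from −0.27 to 0.40.

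Of 10 plasma cell genes, 0 were called, 1 had an unadjusted p under 0.05 (Eaf2, higher) and the median difference was 0.06. Xbp1, the factor that builds the secretory apparatus, was at 5.88 ± 0.43 (SD, n = 11) and 5.91 ± 0.32 (SD, n = 8), and Sdc1 (CD138), also a protein of epithelial and tumor cells, at 4.56 ± 0.48 (SD, n = 11) and 4.51 ± 0.74 (SD, n = 8). Irf4 was highest in the Rag2-/- tumors S46 (1.31) and S47 (0.88), the 2 tumors with the most Tnfrsf17 fragments of that genotype, and was between −2.22 and 0.21 in the other 9. Of the 5 genes of the BAFF and APRIL axis, 0 were called and 0 had an unadjusted p under 0.05. The ligands Tnfsf13b (BAFF) and Tnfsf13 (APRIL) differed by 0.08 and 0.08, and the receptor Tnfrsf13b (TACI), which macrophages also carry, was at 2.25 ± 0.86 (SD, n = 11) and 1.82 ± 0.52 (SD, n = 8).

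**Figure D5:**
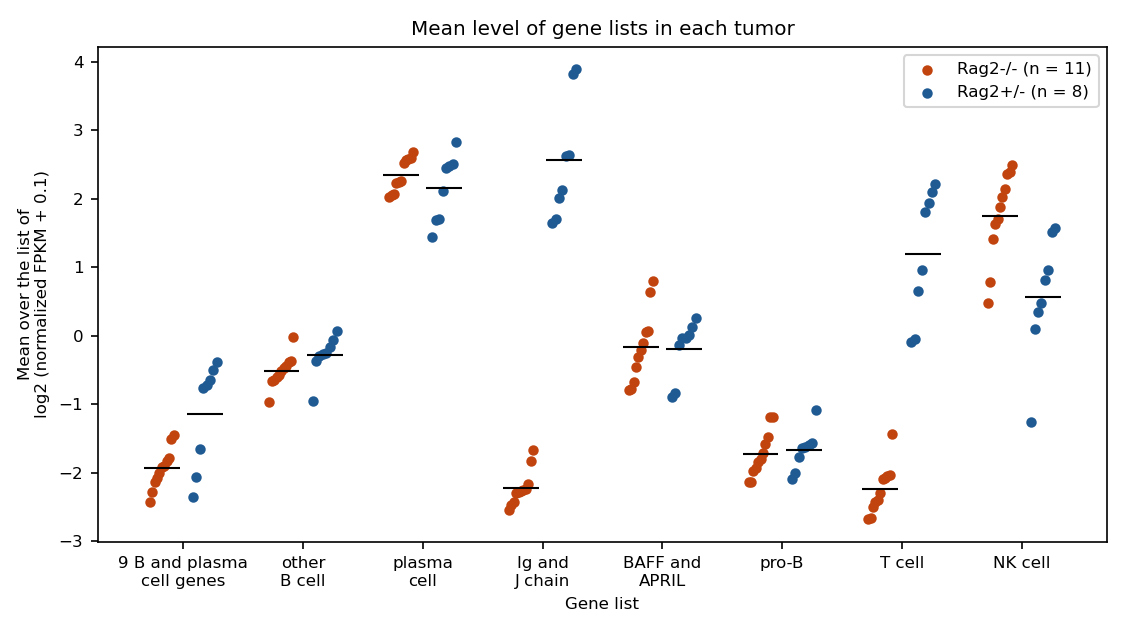
Mean log2 value over each gene list in each tumor, for 11 Rag2-/- (orange) and 8 Rag2+/- (blue) tumors, with the genotype mean as a black line. The immunoglobulin and T cell lists lie apart between genotypes, the 9 B and plasma cell genes overlap, and the other B cell, plasma cell, BAFF and APRIL and pro-B lists overlap widely.

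Chemokines and cytokines of lymphoid tissue gave 0 calls among 7 genes, with 1 at an unadjusted p under 0.05 (Cxcr5, lower in Rag2-/- tumors). Cxcl13, which draws B cells into follicles, was highest in S51 (4.85) and S46 (4.15), both Rag2-/-, and then in S59 (3.02). Of 5 pro-B cell genes, 0 were called and 0 had an unadjusted p under 0.05. Igll1, a part of the surrogate light chain of B cell precursors, was above the floor in 2 of 11 Rag2-/- tumors (S47 at −2.09 and S46 at −2.67) and 1 of 8 Rag2+/- tumors (S59 at −2.48). It does not stand for its list, whose mean was higher, at −1.72 ± 0.33 (SD, n = 11) and −1.67 ± 0.31 (SD, n = 8).

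Markers of other cells were counted in the same fit. Of 8 T cell markers, 6 were called lower in Rag2-/- tumors (median difference −3.94), led by Cd3e, Cd3d, Cd3g and Cd8a. Of 6 NK cell markers, 0 were called, 5 had an unadjusted p under 0.05, all higher, and the median difference was 1.17. The mean over 8 skeletal muscle genes was 8.65 ± 2.13 (SD, n = 11) and 10.91 ± 2.47 (SD, n = 8), with 0 called and 7 at an unadjusted p under 0.05, all lower. With that mean as a covariate Pou2af1 passed (difference −2.23, limma adjusted p = 0.0267) and Cd79a still did (−2.15, adjusted p = 0.0107). The part of muscle in the values of the 9 genes was otherwise not tested. Macrophage markers (0 of 6), pan-leukocyte markers (0 of 5) and plasmacytoid dendritic cell markers (0 of 6) gave no calls, with 0, 1 (higher) and 2 genes (Klk1 and Cox6a2, both lower) at an unadjusted p under 0.05 and median differences of 0.40, 0.32 and −0.17. Cox6a2 is also a gene of skeletal muscle, and it was at 10.64 in S56 and 2.54 in S48, the tumors with the highest and lowest mean over the muscle genes. The plasmacytoid list bears on the 9 genes because plasmacytoid dendritic cells also carry some genes of B cells, and Siglech, which defines them, was at −0.40 ± 0.73 (SD, n = 11) and −0.49 ± 1.20 (SD, n = 8). The macrophage list was between 6.63 and 8.54 in Rag2-/- tumors, highest in S46, and between 5.47 and 7.29 in Rag2+/- tumors.

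The genes whose values across the 8 Rag2+/- tumors were most like the members were found among 12821 genes with a mean log2 value above 0. For the mean of Ms4a1, Cd79a, Cd79b, Pax5, Cd22 and Blk they were Slpi (Pearson r = 0.980, n = 8), Sirpb1c (0.967), Stx7 (0.952), C130050O18Rik (0.945) and Il18rap (0.944), with r from 0.777 to 0.951 for these genes without S56 and S60 (n = 6). For the mean of Mzb1, Tnfrsf17 and Pou2af1 they were Ifi27l2a (r = 0.967, n = 8), Exosc9 (0.946), Slfn4 (0.939), Epb41l4aos (0.935) and Kbtbd11 (0.934), with r from 0.797 to 0.892 without S56 and S60 (n = 6). Of these genes, 33 and 21 exceeded 0.9 over 8 tumors that also differed in depth and in their mean over the muscle genes (7.13 to 13.68), and the values are descriptions only.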

How the data were processed

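RNA of 19 tumors had been sequenced as 150-base read pairs (NEBNext Ultra II). The authors used the Omicsoft Sequence Aligner against mouse B38, allowing at most 2 mismatches, with Ensembl R86 gene models, and deposited log2 values of upper-quartile normalized FPKM plus 0.1. The submitters' processing notes also name Trimmomatic 0.36, STAR, HTSeq and mm10, with no role given. The values are not counts. All 19 columns matched a tumor by its code, leaving 0 unmatched, and 48349 of 48795 identifiers had a symbol.

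Genotypes were compared with limma 3.58.1 (R 4.3.3, intensity trend, Benjamini-Hochberg) on the deposited log2 values over all 21459 genes above the floor in at least 3 tumors, and for single members by two-sided exact permutation over all 75582 relabelings of the tumors, for which the smallest p is 1.32e-05. A fold change on this scale understates changes of low genes. Each p measures the spread between tumors, 1 library each. The limma step was tested on simulated data in which the changed genes had a mean log2 value above 0. That test does not cover genes as low as Cd79a, Mzb1 and Pou2af1. Fragments were estimated from the smallest step of low values of genes with 1 transcript (GENCODE vM21, GRCm38, longest transcript), of which 77.3% to 89.7% were whole to within 0.05. Gene positions are from the same annotation, and promoters from RefSeq. These estimates cover counting error only, from reads without molecular identifiers.

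The genes named are the 9 members, the defining genes of 12 context lists (with the 4 lowest p among those called) and the 5 genes most like each group of members. Ighm, Ighg2c, Eaf2, Igll1, Ccl19, Rag2, the B cell genes shared with other cells and genes that overlap a member were named after their values were seen. The value of 1 gene among the context lists, which its list still counts, is not reported here. The members and lists were chosen with earlier results of these data known. Alternatives were other sets of tumors, pseudocounts, filters, scalings and variance models, and each tumor left out.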

Additional observations from a re-analysis of the deposited data

Results flagged for a closer look

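One value stood far from the others of its genotype. Among the 8 Rag2+/- tumors, Cd79a was lowest in S53, at −2.22, and its gap to the next tumor, S52 at −0.82, was 0.538 of the whole range of the genotype, above Dixon's 95% limit for 8 tumors. S53 had an estimated 4 fragments of Cd79a, 27.5 M fragments on genes and a mean of 7.13 over the 8 skeletal muscle genes, the lowest of the Rag2+/- tumors, and its Cd3e value of −0.61 was also the lowest of that genotype. Chance flags about 1 in 20 groups, and 9 genes were examined in this genotype. The 11 Rag2-/- tumors were too many for the rule.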

How the results depend on the processing

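No paired analysis was possible because the labels give each library a code of its own and no replicate number, and do not say which mice were littermates. Numbers given to tumors in accession order pair nothing. Of the 9 genes, 1 was called with all tumors (Cd79a), and Cd79a was called in every alternative run that tested it, with adjusted p from 3.59e-05 to 0.0185. The count was 2 with the 15 tumors of the study's figure, with a pseudocount of 0.01 and with the muscle covariate, each time adding Pou2af1, and 0 with a mean log2 value above 0, where only Cd79b and Cd22 were tested. Leaving out 1 tumor gave 1 to 3, the 3 being Cd79a, Mzb1 and Pou2af1 without S56 or without S60. Alternatives chosen after seeing the data were the removal of S56 and S60, of S41 as well, and a stricter filter, as were the order of levels and correlations without S56 and S60. The count was 4 without S56 and S60 and 3 without S41, S56 and S60, and it was 1 with genes above the floor in at least 8 tumors, where Blk, Tnfrsf17 and Pou2af1 were not tested. The number of all genes called, 36, became 62 with the 15 tumors (48 lower and 14 higher), 4 with a mean above 0, 57 and 55 without S56 and S60 and without S41 as well, and 28 to 59 with 1 tumor left out, 59 (46 lower and 13 higher) being without S51. It was 24 for genes above the floor in at least 8 tumors, where fewer genes were tested. The difference of Cd79b, 0.10, was −0.17 with the 15 tumors, −0.18 with the muscle covariate, −0.04 without S46, −0.12 without S56, −0.07 without S60, −0.35 without S56 and S60 and −0.35 without S41 as well, and it ran from −0.12 to 0.23 with 1 tumor left out. The difference of Tnfrsf17, −0.10, was 0.0066 with the muscle covariate, 0.22 without S52 and 0.05 without S55, and it ran from −0.34 to 0.22 with 1 tumor left out. Other causes of these changes were not tested. The other 7 genes kept their direction in every alternative that tested them.
Depth limits the low members. With 1 to 15 fragments in a tumor, values of Blk, Tnfrsf17 and, in Rag2-/- tumors, Ms4a1, Cd79a and Mzb1 move with single fragments, and S41 would miss genes that the other libraries could show. S56 and S60 held the fewest values little above the floor, 374 and 767 against 1004 to 3286 in the other tumors. Floor values of low members in S56 and S60 are therefore uncertain too.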

Other observations

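A few tumors held combinations of values that belong to no comparison. S46 (Rag2-/-) had 8 of the 9 members above the floor, the highest Cd79b (2.26), Cd22 (2.36) and Tnfrsf17 (−0.25) of its genotype, Irf4 at 1.31, Cxcl13 at 4.15 and Ccl19, a chemokine for CCR7, at 0.64, while its Igkc was at −2.51 and its Ms4a1 at the floor. S47 (Rag2-/-) resembled it in Tnfrsf17 (−1.05), Irf4 (0.88), Cxcl13 (1.57) and Ccl19 (1.90), with Igkc at the floor. S51 (Rag2-/-) had Cxcl13 at 4.85 and Ccl19 at 2.91, the highest of the 19 tumors, with Tnfrsf17 and Ms4a1 at the floor and Cd79b at −0.11.

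Among Rag2+/- tumors, S59 had the highest Ms4a1 (−0.80), with Cxcl13 at 3.02, whereas S58 had the highest Mzb1 (1.98), Pou2af1 (0.46) and Jchain (6.46) with Cxcl13 at −2.65. S56 and S60, whose Mzb1 and Pou2af1 were at the floor, had the highest Ighm of all tumors, at 6.68 and 5.96.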
